A study of Ovis aries with 12 samples.

Results

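The genes described here are 5 genes of corticosteroid signalling in the sheep hippocampus, the receptor genes NR3C1 and NR3C2, the receptor co-chaperone genes FKBP4 and FKBP5, and HSD11B1, whose enzyme activates cortisol. They were taken by their gene symbols from a table of 33609 genes, and all 5 had counts high enough to be tested. RNA was sequenced from both poles of the hippocampus, dorsal and ventral, in 12 adult ewes of the Ile-de-France breed, of which 6 had been exposed to chronic stress and 6 served as controls. Equal amounts of RNA from 2 ewes were combined for each library, which gave 3 libraries each for dorsal stress, dorsal control, ventral stress and ventral control. No genetic change or drug is recorded for either condition, and how the stress was applied is not given in the sources used here. Both regions came from the same ewes, a pool hides differences between its ewes, and p-values measure the spread between pools.

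Cortisol, the main glucocorticoid of sheep, acts in the brain through a pair of related nuclear receptors. The mineralocorticoid receptor binds it with high affinity and is occupied already at resting levels, and the glucocorticoid receptor binds it with lower affinity and fills when levels rise under stress or at the daily peak. In rodents the hippocampus holds both, with the mineralocorticoid receptor mainly in neurons. Before hormone binds, each receptor is held in a complex with the chaperone HSP90 and a co-chaperone, and FKBP5 in that complex lowers hormone affinity while FKBP4 favours transport to the nucleus. The amount of active hormone within a cell also depends on HSD11B1, which turns inert cortisone into cortisol.

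Library totals ranged from 12254743 to 53775720 counts, and every dorsal stress library was shallower than every dorsal control library. Levels are given as normalized CPM, that is counts brought to a common library total with the TMM method of edgeR. They can be compared between libraries but not between genes, because transcript lengths were not used here. The first principal component of the 17806 tested genes held 50.04% of the variance and separated libraries within every group, from -103 in ventral control library 1 to 105 in ventral control library 3. The second held 18.9% and separated the regions. Markers of hippocampal excitatory neurons were found in all libraries, with a summed level of 7 genes from 4747 to 7074 CPM in dorsal and from 2767 to 4907 CPM in ventral tissue. Of 7 dentate granule cell markers only TDO2 was at 0 throughout, and the summed level ran from 176 to 389 CPM in dorsal and from 150 to 421 CPM in ventral libraries. Of the 6 that were tested, DSP (-1.92) and IGFBP5 (-0.52) were called lower in dorsal tissue and 0 higher. The list median log2 fold change was -0.46 against -0.02 for all tested genes, of which 4.51% were called in either direction. The series abbreviates dorsal as DG, without saying if it means the dentate gyrus.

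The first comparison asked whether these genes differ between dorsal and ventral hippocampus over both conditions. NR3C2, the mineralocorticoid receptor gene, was higher in dorsal tissue. Its level in libraries 1 to 3 was 81.2, 92.6 and 123 CPM in dorsal stress and 69.5, 79.7 and 78.8 CPM in dorsal control. It was 54.8, 39.8 and 60.1 CPM in ventral stress and 44.3, 30.5 and 49.5 CPM in ventral control. The lowest dorsal library thus lay above the highest ventral one.

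The fitted level of NR3C2 was 1.87-fold higher in dorsal than in ventral tissue, with a 95% interval from 1.45 to 2.43. As a log2 fold change this was 0.91 ± 0.17 (SE; edgeR adjusted p = 0.0131, n = 6 libraries per region). It was 1 of the 5 genes called, where 4.51% of all tested genes were called between regions in either direction and 4.90% had no overlap between the 6 dorsal and the 6 ventral libraries. Region accounted for 71.3% of the variance of its log2 level over the 12 libraries, against a median of 5.22% over all tested genes. Differences within groups accounted for 18.9%, against a median of 83.9%.

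Taken within each condition, the difference in NR3C2 was not called by edgeR. In stressed ewes the log2 fold change was 0.94 ± 0.24 (edgeR adjusted p = 0.144) and in control ewes 0.88 ± 0.24 (edgeR adjusted p = 0.157), with no overlap between dorsal and ventral libraries in either. Called genes made up 0.444% and 1.00% of those tested in these comparisons, and genes without overlap 13.7% and 11.7%. DESeq2 called NR3C2 in both, with adjusted p = 0.0114 in stressed and 0.0226 in control ewes, where it called 3.26% and 4.09% of all genes. Limma-voom called it in neither, with adjusted p = 0.179 in stressed and 0.127 in control ewes and shares of 0.163% and 1.09%. Leaving out any 1 of the 12 libraries kept the call over both conditions, with log2 fold changes from 0.81 to 0.98 and a highest edgeR adjusted p of 0.0408.

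**Figure D1:**
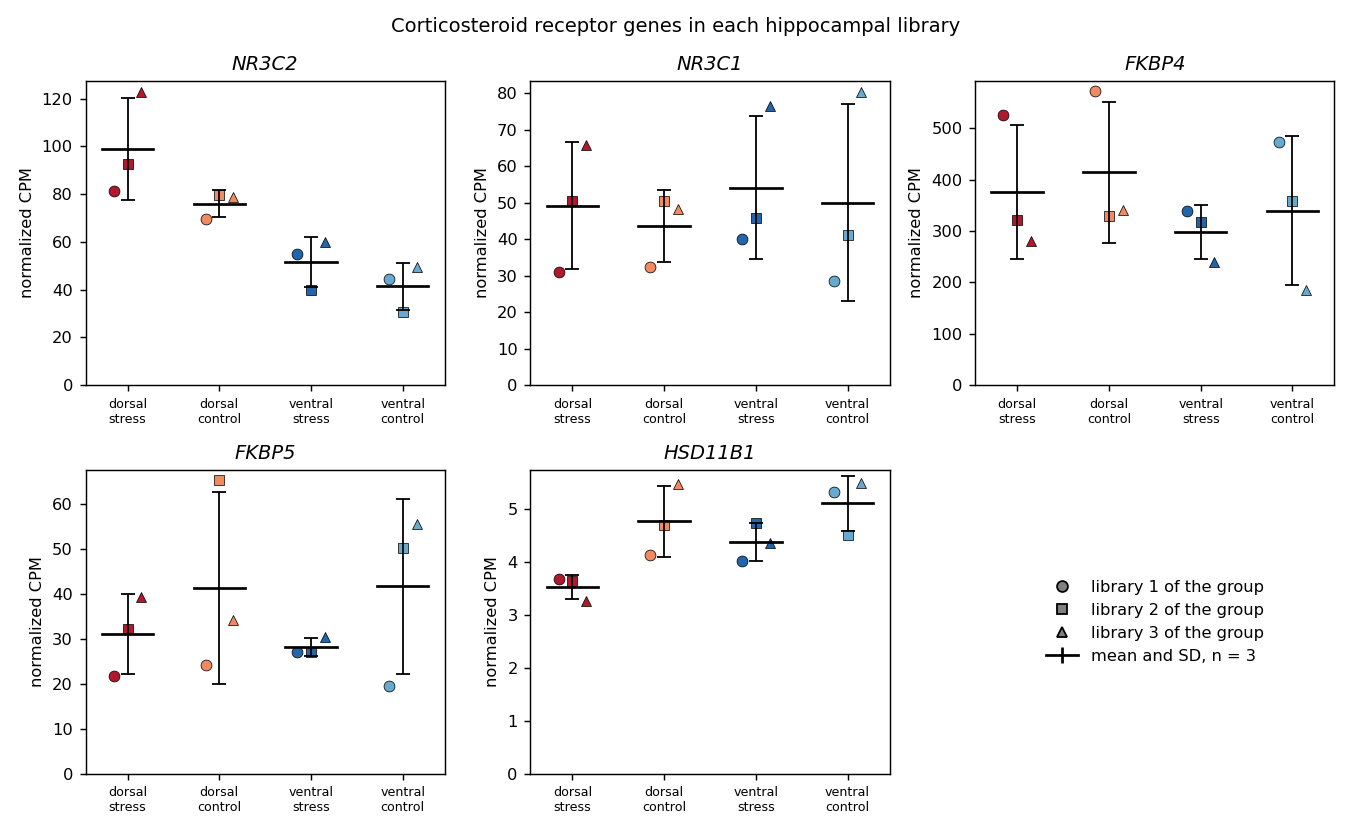
Normalized CPM of the 5 genes (y axis, linear, from 0) in each of the 12 libraries, grouped on the x axis as dorsal stress, dorsal control, ventral stress and ventral control. Symbols mark library 1, 2 or 3 of a group, and bars give the mean and SD (n = 3). NR3C2 lies between 69.5 and 123 CPM in the dorsal libraries, above the 30.5 to 60.1 CPM of the ventral ones, while the other 4 genes overlap between regions.

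Markers of some cell types also differed between the regions, a comparison in which 4.51% of all tested genes were called. Single markers given below as higher or lower were called. Among 7 excitatory neuron markers 3 were higher in dorsal tissue and 0 were lower. They were NEUROD2, CAMK2A and BHLHE22, with log2 fold changes of 1.31, 0.60 and 1.60. The summed level of 6 CA2 pyramidal cell markers was 255 to 498 CPM in dorsal stress and 301 to 437 CPM in dorsal control, against 142 to 234 CPM in ventral stress and 131 to 246 CPM in ventral control. In that list RGS14 was called higher in dorsal tissue, by 2.19 on the log2 scale, and PCP4 was called lower (-1.70). The median log2 fold change of the list was 0.08, against -0.02 for all tested genes, so its members gave no common direction. Of 8 oligodendrocyte markers all had positive fold changes and 1 was called, the myelin gene MOBP (0.92), and their summed level was 6666 to 10870 CPM in dorsal and 3815 to 8375 CPM in ventral libraries. Of 7 tested inhibitory neuron markers 3 were lower, GAD1 (-0.51), VIP (-1.11) and LHX6 (-0.93). SST, the eighth of the list, was at 0 in all libraries, which is not read as absence from the tissue because the annotation used for counting is not given. The list summed to 341 to 398 CPM in dorsal stress and 361 to 400 CPM in dorsal control, against 505 to 530 CPM in ventral stress and 459 to 517 CPM in ventral control. Of 8 meningeal markers 6 were lower, with summed levels of 159 to 176 CPM in dorsal stress and 149 to 230 CPM in dorsal control, against 446 to 587 CPM in ventral stress and 344 to 581 CPM in ventral control. The part of these cell types in the NR3C2 difference was not tested, and in bulk tissue fewer cells of a type and less RNA per cell cannot be told apart.

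Choroid plexus, the tissue that secretes cerebrospinal fluid and can be dissected along with the hippocampus, also differed. The summed level of 11 of its markers was 508 to 1229 CPM in dorsal stress and 872 to 2993 CPM in dorsal control, against 190 to 232 CPM in ventral stress and 168 to 548 CPM in ventral control. None of the 11 was at 0 in all libraries. Of the 10 that were tested 3 were called higher in dorsal tissue, TTR, CLIC6 and AQP1, and SOSTDC1 was called lower. The share called among all tested genes was 4.51%. The mean log2 CPM of those 10 genes, centred on 0, ranked libraries otherwise than the sum. Ventral control library 1 had the highest ventral sum, 548 CPM, but the lowest mean of all libraries, -0.86. Dorsal control library 1 had the highest sum, 2993 CPM, but the lowest mean of its group, 0.47. The mean also differed with region, from -0.86 to -0.014 in ventral and from -0.52 to 1.00 in dorsal libraries. Within dorsal stress, ventral stress and ventral control it rose with the first component, but not throughout in dorsal control. Fits with this mean as a covariate are therefore not read as corrected for choroid plexus content. With it the NR3C2 difference was 0.55 ± 0.19 and was no longer called (edgeR adjusted p = 0.0585). Within conditions it was then 0.71 ± 0.20 in stressed ewes (edgeR adjusted p = 0.121) and 0.39 ± 0.27 in control ewes (edgeR adjusted p = 0.289).

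NR3C1, the glucocorticoid receptor gene, showed no such difference. Its level in libraries 1 to 3 was 31.1, 50.5 and 65.9 CPM in dorsal stress and 32.3, 50.5 and 48.2 CPM in dorsal control. It was 40.0, 45.8 and 76.7 CPM in ventral stress and 28.4, 41.2 and 80.5 CPM in ventral control. All 4 groups overlapped, and the spread within ventral control, from 28.4 to 80.5 CPM, covered every other library. The log2 fold change of dorsal over ventral tissue was -0.17 ± 0.30 (edgeR adjusted p = 1), with an interval from 0.565-fold to 1.40-fold. Differences within groups made up 95.3% of its variance. With this choroid plexus covariate NR3C1 was called lower in dorsal tissue, at -0.98 ± 0.26 (edgeR adjusted p = 0.0339), in a fit that called 22.9% of all tested genes in either direction. In fits that lacked the covariate, its fold change was positive without ventral control library 3 (0.093) or the 3 libraries highest on the first component (0.13).

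The count of NR3C2 divided by that of NR3C1 does not depend on how libraries are scaled. In libraries 1 to 3 this ratio was 2.61, 1.83 and 1.86 in dorsal stress and 2.15, 1.58 and 1.64 in dorsal control. It was 1.37, 0.870 and 0.784 in ventral stress and 1.56, 0.739 and 0.615 in ventral control. Every dorsal library therefore had the higher ratio, though dorsal control library 2 at 1.58 and ventral control library 1 at 1.56 were close. Library 1 had the highest ratio in each group. The ratio is of read counts, not of transcripts, and was not tested because the genes were chosen with earlier results of these data known.

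**Figure D2:**
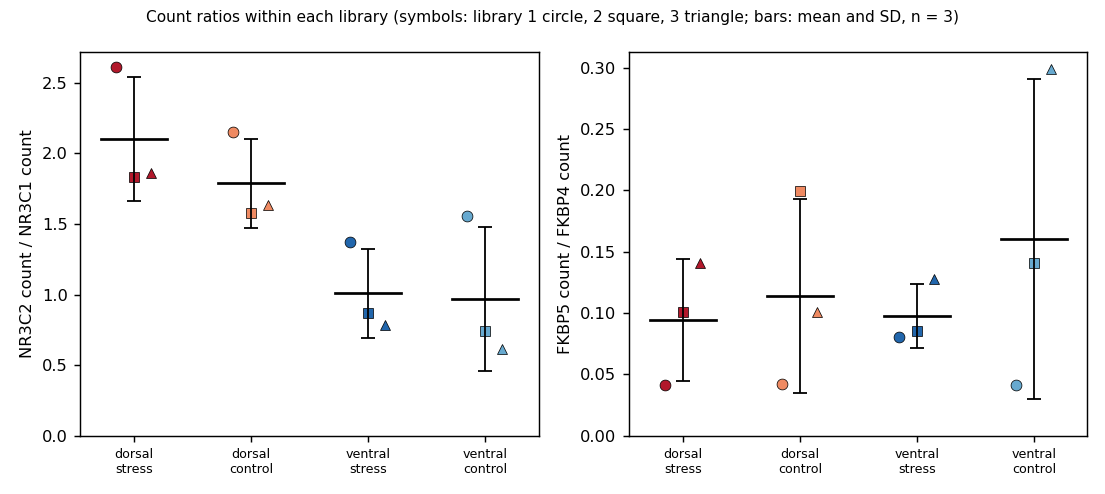
Counts of NR3C2 over NR3C1 (left) and of FKBP5 over FKBP4 (right) within each library, on linear y axes from 0, for the 4 groups on the x axis, with mean and SD (n = 3). All 6 dorsal libraries have an NR3C2 to NR3C1 ratio of 1.58 or more and all 6 ventral libraries one of 1.56 or less, while the FKBP5 to FKBP4 ratio overlaps between all groups.

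The co-chaperone genes did not differ between regions beyond their spread. FKBP4, whose product binds steroid receptors with HSP90 and links them to the dynein motor, had 525, 321 and 281 CPM in dorsal stress libraries 1 to 3 and 573, 329 and 341 CPM in dorsal control. It had 338, 318 and 239 CPM in ventral stress and 474, 359 and 186 CPM in ventral control. Library 1 was the highest of its group in all 4 groups, and the groups overlapped. The log2 fold change was 0.31 ± 0.26 (edgeR adjusted p = 0.836), with an interval from 0.832-fold to 1.85-fold. With the choroid plexus covariate it was 1.02 ± 0.26 and was called (edgeR adjusted p = 0.0314), where that fit called 22.9% of all tested genes in either direction.

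FKBP5, which lowers the hormone affinity of the glucocorticoid receptor and is itself switched on by that receptor, had 21.7, 32.3 and 39.5 CPM in dorsal stress and 24.3, 65.4 and 34.3 CPM in dorsal control. It had 27.1, 27.2 and 30.5 CPM in ventral stress and 19.5, 50.4 and 55.6 CPM in ventral control. The 3 ventral stress libraries lay close together, and both the lowest and the highest of the 12 levels were in control libraries. The log2 fold change of dorsal over ventral tissue was 0.06 ± 0.31 (edgeR adjusted p = 1). It was negative without dorsal control library 2 (-0.18), dorsal stress library 3 (-0.039) or ventral control library 1 (-0.11). The FKBP5 to FKBP4 count ratio was 0.0414 to 0.141 in dorsal stress, 0.0425 to 0.199 in dorsal control, 0.0801 to 0.128 in ventral stress and 0.0411 to 0.299 in ventral control.

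HSD11B1, which regenerates cortisol from cortisone in the endoplasmic reticulum, was sparse, with 40 to 221 counts per library. In libraries 1 to 3 it had 3.68, 3.65 and 3.27 CPM in dorsal stress and 4.14, 4.70 and 5.47 CPM in dorsal control. It had 4.02, 4.74 and 4.35 CPM in ventral stress and 5.31, 4.51 and 5.49 CPM in ventral control. The 3 dorsal stress libraries were the lowest 3 of the 12. Dorsal over ventral tissue gave a log2 fold change of -0.20 ± 0.16 (edgeR adjusted p = 0.802), in stressed ewes -0.31 ± 0.23 without overlap (edgeR adjusted p = 1) and in control ewes -0.10 ± 0.23 (edgeR adjusted p = 1). Between regions in stressed ewes 13.7% of all tested genes had no overlap. H6PD, which supplies the cofactor for this reaction, had 23.7 ± 5.23 CPM in dorsal stress, 24.3 ± 4.07 CPM in dorsal control, 23.2 ± 4.33 CPM in ventral stress and 28.5 ± 0.881 CPM in ventral control (SD, n = 3). HSD11B2, the enzyme that inactivates cortisol in the kidney, had between 0 and 6 counts in each library, too few to be tested.

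**Figure D3:**
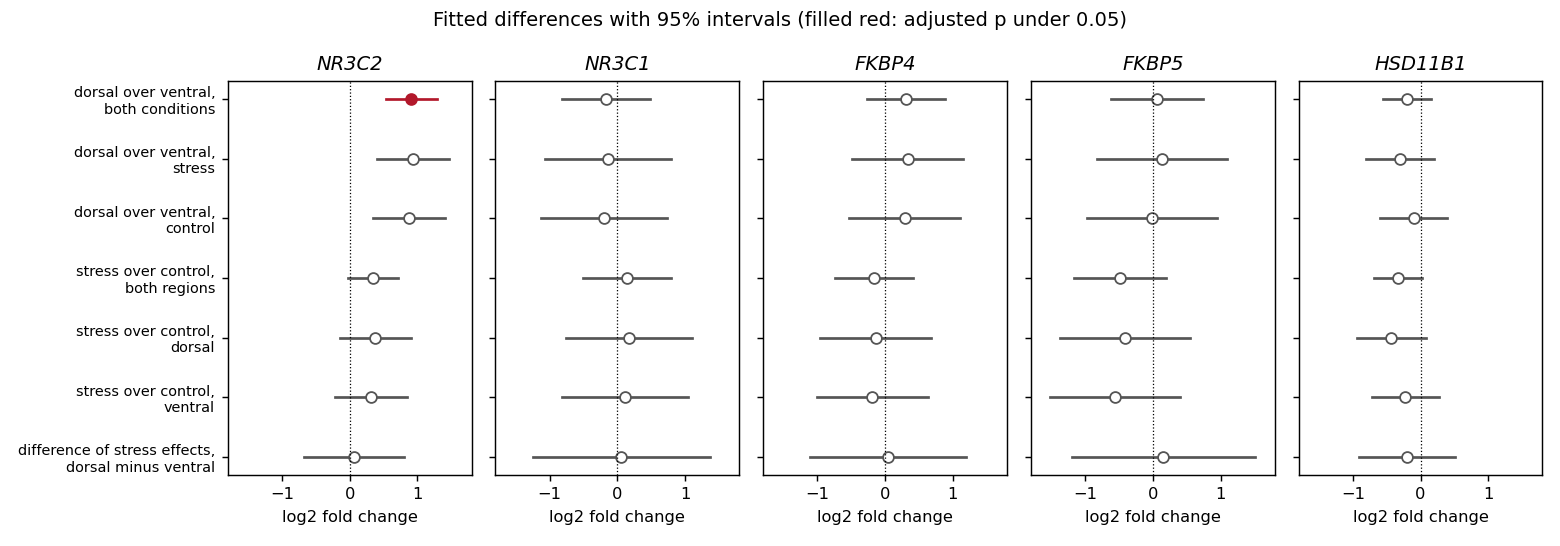
Log2 fold changes (x axis) of the 5 genes in the 7 comparisons (rows), as points with 95% intervals from the edgeR fit of all 12 libraries; filled red marks an adjusted p under 0.05. The interval of NR3C2 for dorsal over ventral tissue in both conditions runs from 0.53 to 1.28 and is the only one called.

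The second comparison asked what chronic stress changed in each region, and none of the 5 genes was called in it. In edgeR 0 of the 17806 tested genes, 0.00%, were called for stress in dorsal tissue, in ventral tissue or averaged over both, with 152, 142 and 308 genes at an unadjusted p under 0.05. DESeq2 called 1, 1 and 14 genes and limma-voom 0 in each, and by none of these tools was one of the 5 among them. The edgeR fit and the variance shares treated dorsal and ventral libraries of the same ewes as independent. SEs and intervals of stress effects averaged over regions may therefore be too narrow.

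For NR3C2 the log2 fold change of stress over control averaged over regions was 0.35 ± 0.17 (edgeR adjusted p = 1), with an interval from 0.983-fold to 1.65-fold. In dorsal tissue it was 0.38 ± 0.24, and the lowest stress library, at 81.2 CPM, lay just above the highest control library, at 79.7 CPM. In ventral tissue it was 0.32 ± 0.24 and the libraries overlapped. Group means ran in the order 98.9 ± 21.5 in dorsal stress, 76.0 ± 5.65 in dorsal control, 51.6 ± 10.5 in ventral stress and 41.4 ± 9.84 CPM in ventral control (SD, n = 3). Of the neighbours in that order, the ventral stress and ventral control libraries overlap, and the other neighbours do not.

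For HSD11B1 the averaged log2 fold change of stress over control was -0.33 ± 0.16 (edgeR adjusted p = 1), from 0.623-fold to 1.02-fold. In dorsal tissue it was -0.43 ± 0.23 (edgeR adjusted p = 1), and every stress library lay below every control library. In ventral tissue it was -0.22 ± 0.23 with overlap. Group means were 3.53 ± 0.230 in dorsal stress, 4.77 ± 0.671 in dorsal control, 4.37 ± 0.359 in ventral stress and 5.11 ± 0.519 CPM in ventral control (SD, n = 3). Condition held 48.7% of the variance of its log2 level, against a median of 3.07% over all tested genes. Thus 2 of the 5 genes, NR3C2 and HSD11B1, had no overlap between stress and control in dorsal tissue, as did 5.14% of all tested genes. None of the 5 lacked overlap in ventral tissue or over both regions, where the shares of all tested genes were 2.86% and 0.0955%. Depth differed in the same contrast, and with all libraries thinned to 12254743 counts the dorsal values were 0.39 for NR3C2 and -0.53 for HSD11B1 (edgeR adjusted p = 1 for both).

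FKBP5 had the most negative stress fold change in the averaged comparison, -0.49 ± 0.31 (edgeR adjusted p = 1), and 5.87% of all tested genes had a lower one. Its interval, from 0.446-fold to 1.14-fold, includes no change. Group means were 31.2 ± 8.92 in dorsal stress, 41.4 ± 21.4 in dorsal control, 28.3 ± 1.94 in ventral stress and 41.8 ± 19.5 CPM in ventral control (SD, n = 3). In dorsal tissue the log2 fold change was -0.41 ± 0.43 and rested on dorsal control library 2, the highest of all at 65.4 CPM: without it the value was 0.088. In ventral tissue it was -0.56 ± 0.43, and leaving out single libraries kept it between -0.90 and -0.30.

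NR3C1 and FKBP4 showed the smallest averaged stress fold changes of the 5. For NR3C1 the value was 0.14 ± 0.30 and for FKBP4 -0.16 ± 0.26 (edgeR adjusted p = 1 for both). The means of NR3C1 were 49.2 ± 17.5 in dorsal stress, 43.7 ± 9.91 in dorsal control, 54.2 ± 19.7 in ventral stress and 50.1 ± 27.1 CPM in ventral control, and those of FKBP4 were 376 ± 131, 414 ± 137, 298 ± 52.6 and 340 ± 145 CPM in the same order (SD, n = 3). Neighbouring groups overlapped for both genes. The sign of NR3C1 changed in dorsal tissue without dorsal control library 1 (-0.0073) or dorsal stress library 3 (-0.098), and in ventral tissue without ventral control library 1 (-0.17), ventral control library 2 (-0.0062) or ventral stress library 3 (-0.22). That of FKBP4 changed without dorsal control library 1 (0.17) or dorsal stress library 3 (0.031) in dorsal tissue and without ventral control library 1 (0.13) in ventral tissue. No direction is given for either gene.

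The stress effect was also compared between regions. The difference of the dorsal and the ventral log2 fold change was 0.06 ± 0.34 for NR3C2, 0.06 ± 0.59 for NR3C1, 0.05 ± 0.52 for FKBP4, 0.16 ± 0.61 for FKBP5 and -0.21 ± 0.32 for HSD11B1 (edgeR adjusted p = 1 for each). No gene of the table was called, 0.00%, with 46 at an unadjusted p under 0.05 and 0 called by DESeq2 or limma-voom. The 95% interval was widest for FKBP5, from -1.20 to 1.51 on the log2 scale, and even that of HSD11B1, from -0.91 to 0.50, spans changes as large as its stress effects in either region.

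Other genes of the pathway were examined in 4 lists, of which 61 genes could be tested. They were 19 of 19 chaperones and co-chaperones of the receptors, 15 of 15 coregulators, 8 of 17 genes of corticosteroid synthesis, breakdown and transport, and 19 of 20 glucocorticoid-induced genes. In edgeR 0 of the 61 were called in any of the 7 comparisons. At an unadjusted p under 0.05 there were 4 between regions over both conditions, 2 between regions in stressed ewes, 1 for the averaged stress effect and 0 in the other 4 comparisons. Over all tested genes the shares at that p were 13.7%, 7.86% and 1.73% in the first 3 of these. DESeq2 called 1 of the 61 between regions, CDKN1A, where it called 8.76% of all genes with an adjusted p, and 0 elsewhere, and limma-voom called 0.

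Between regions the median log2 fold change was -0.01 for chaperones, 0.11 for coregulators, -0.02 for synthesis and transport and 0.12 for glucocorticoid-induced genes, against -0.02 for all tested genes. CDKN1A, a cell cycle inhibitor, had the smallest p of the glucocorticoid-induced list. It stood at 57.4 ± 31.0 in dorsal stress, 37.9 ± 12.5 in dorsal control, 23.2 ± 10.5 in ventral stress and 21.1 ± 3.35 CPM in ventral control (SD, n = 3), a log2 fold change of 1.07 ± 0.30 (edgeR adjusted p = 0.0785; DESeq2 adjusted p = 0.00954). KLF9, a transcription factor gene of the same list, was at 0.77 ± 0.27 (edgeR adjusted p = 0.17) and was called without ventral control library 3 (1.01, edgeR adjusted p = 0.0383). With the choroid plexus covariate 4 chaperones, 7 coregulators and 4 glucocorticoid-induced genes were called, among them CDKN1A (1.73) and PPARGC1A (-1.13), where 22.9% of all tested genes were called in that fit. In the other lists the smallest p belonged to ST13, the Hsp70-interacting protein (-0.24 ± 0.13), PPARGC1A, a coactivator of energy metabolism (-0.59 ± 0.23), and FDX1, which passes electrons to steroid-making enzymes (-0.31 ± 0.24), with edgeR adjusted p from 0.258 to 0.797.

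For the averaged stress effect the median log2 fold change was -0.00 for chaperones, 0.08 for coregulators, -0.11 for synthesis and transport and -0.09 for glucocorticoid-induced genes, against -0.01 for all tested genes. Of the 19 glucocorticoid-induced genes 4 had a positive value, 0 were called in edgeR and 1 had an unadjusted p under 0.05. The share of positive values over all tested genes was not computed, so no common direction is read from this. HIF3A, a factor related to the hypoxia response, had the smallest p of that list, at -0.54 ± 0.22 (edgeR adjusted p = 1). In libraries 1 to 3 it had 23.1, 26.2 and 26.6 CPM in dorsal stress and 28.2, 47.1 and 24.3 CPM in dorsal control, with overlap, and 25.9, 24.4 and 35.2 CPM in ventral stress against 31.7, 41.7 and 63.8 CPM in ventral control, also with overlap. In the other lists the smallest p belonged to PPID, a cyclophilin co-chaperone (-0.18 ± 0.13), KDM1A, a histone demethylase (-0.16 ± 0.14), and STAR, which carries cholesterol into mitochondria (0.67 ± 0.44).

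Among 12618 genes with a symbol and a mean log2 CPM of at least 1, those whose log2 level was most like each of the 5 over the 12 libraries were found by Pearson's r, given as a description. For NR3C2 these were LAMA3, a laminin chain (0.977), NPTX1, a neuronal pentraxin (0.970), and TMEM150C (0.964). NPTX1 stood at 981 ± 184 in dorsal stress and 872 ± 131 in dorsal control, against 440 ± 135 in ventral stress and 373 ± 85.5 CPM in ventral control (SD, n = 3). The order of groups is that of NR3C2, which adds nothing to the r by which NPTX1 was chosen. For HSD11B1 they were SIAE, an esterase of sialic acids (0.940), RAD50 (0.791) and OCA2 (0.784), and for FKBP5 YME1L1 (0.929), LAMA2 (0.919) and ENPP5 (0.911). SIAE was lowest in dorsal stress, at 12.4 ± 1.72 CPM, against 16.3 ± 2.11 CPM in dorsal control, and stood at 14.9 ± 0.941 in ventral stress against 18.3 ± 1.81 CPM in ventral control.

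For NR3C1 the most alike genes were GOLM2 (0.994), XIAP (0.994) and PCNP (0.993), and for FKBP4 GCAT (0.991), STK19 (0.991) and POLR2E (0.990). The libraries share ewes across regions and the main component of variance, so these values say little about single pairs of genes. The level of NR3C1 followed that component: its 3 lowest libraries, ventral control 1, dorsal stress 1 and dorsal control 1, were the 3 lowest on it, and its 3 highest, ventral control 3, ventral stress 3 and dorsal stress 3, the 3 highest. FKBP4 had the opposite order, highest in the first 3 and lowest in the last 3 of these libraries. NR3C1 and FKBP4 had a Pearson's r of -0.943 with each other over the 12 libraries, NR3C1 and FKBP5 one of 0.627, and NR3C1 and NR3C2 one of 0.196. NR3C2 remained higher in dorsal tissue without the 3 libraries lowest on the component (1.02, edgeR adjusted p = 0.0365) and without the 3 highest (0.95, edgeR adjusted p = 0.0312).

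**Figure D4:**
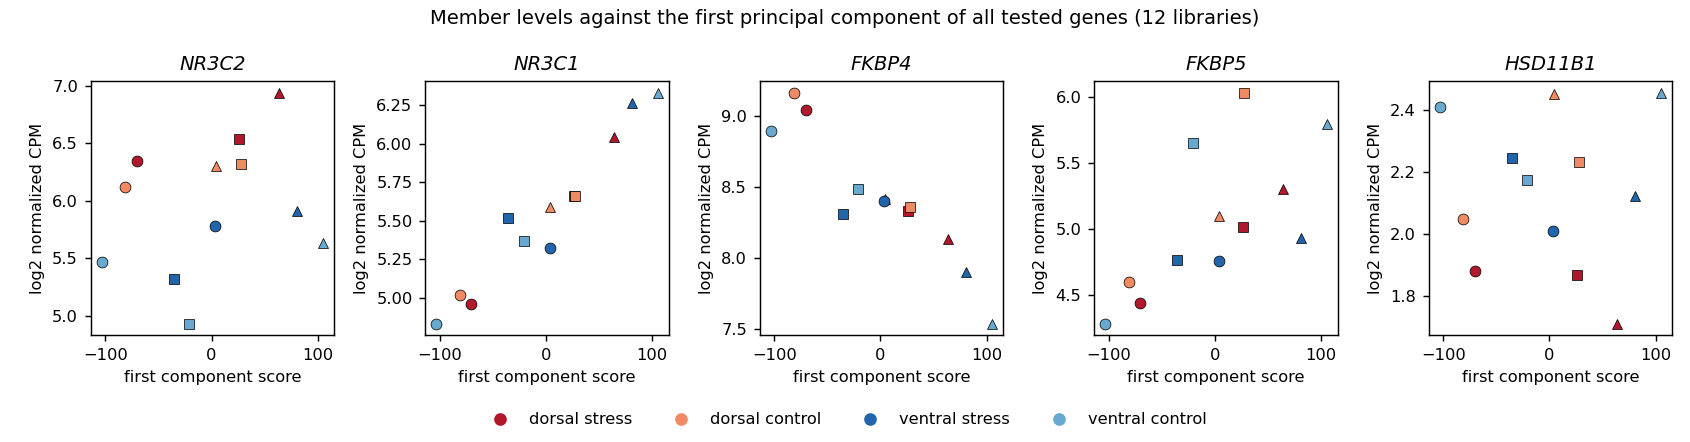
Log2 normalized CPM of each gene (y axis) against the score of the library on the first principal component of all tested genes (x axis), 1 point per library, coloured by group, with circle, square and triangle for library 1, 2 and 3. NR3C1 is lowest in the 3 libraries at -70.2 and below and highest in the 3 at 64.0 and above, FKBP4 has the opposite order, and for NR3C2 the dorsal points lie above the ventral points along the whole range.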

How the data were processed

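TriReagent RNA went into the TruSeq stranded mRNA kit, per the labels' protocols. The deposited table holds whole gene counts by the authors, 1 column per library, matched to samples by their descriptions. The submitters' processing notes name featureCounts 2.0.0, SAMtools 1.9, FastQC, Bowtie2 2.3.5.1, bcl2fastq 2.20 and TopHat2 2.1.1, with build, annotation, strand setting and handling of multiply mapped reads not given in the sources used here. Reads shared with antisense genes therefore cannot be told apart, and no coordinates are printed. Of the gene IDs, 28100 were found in a RefSeq gene table of sheep assembly ARS-UI_Ramb_v3.0, used to give 471 placeholder names a symbol. No 2 libraries of a group agreed within sampling noise (chi-square per degree of freedom at least 20.2).

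The analysis ran edgeR 4.0.16 in R 4.3.3 on these counts: filterByExpr by group, TMM, a robust quasi-likelihood fit with 1 mean per group, F tests and Benjamini-Hochberg adjustment over all 17806 tested genes, with calls at an adjusted p under 0.05. Standard errors (SE) were taken as the absolute log2 fold change over the square root of F. Log2 CPM used a prior count of 2. The steps were tested on simulated data. The 5 genes and all lists were chosen with earlier results of these data known. Named genes were the 5, the called or else lowest-p genes of each pathway list, and the 3 genes most alike by Pearson's r; H6PD, HSD11B2, KLF9 and the called markers were added after their values were seen. Pathway genes with the smallest p are given for the region and averaged stress comparisons. Alternatives were RLE size factors, other filters, DESeq2 1.42.0, limma-voom (limma 3.58.1), a replicate block, only the groups compared, thinned counts, a choroid plexus covariate, leaving out each library, and, chosen after seeing the data, leaving out the 3 libraries at either end of the first component.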

Additional observations from a re-analysis of the deposited data

How the results depend on the processing

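Of 790 refits of the 5 genes over the 7 comparisons, 716 kept both direction and side of the threshold, 69 had the opposite sign, 4 gained a call and 1 lost it. All 69 changes of sign concern values that were not called, 24 in NR3C1, 18 in FKBP4, 21 in FKBP5, 5 in NR3C2 and 1 in HSD11B1, and the cause was not tested. HSD11B1 had 40 counts in the library where it was fewest.

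Between regions over both conditions, the choroid plexus covariate gave log2 fold changes of -0.98 for NR3C1 (edgeR adjusted p = 0.0339), 0.55 for NR3C2 (adjusted p = 0.0585), 1.02 for FKBP4 (adjusted p = 0.0314) and -0.47 for FKBP5. That fit called 22.9% of all tested genes between regions, against 4.51% in the main fit. The covariate turned FKBP5 to -0.24 between regions in stressed ewes, NR3C1 to -0.00156 and FKBP4 to 0.012 for stress in ventral tissue, and the difference of stress effects of FKBP4 to -0.56. DESeq2 called NR3C2 between regions in control ewes (0.87) and in stressed ewes (0.95). FKBP5 between regions in control ewes was 0.00421 with no filter, 0.035 with limma-voom and 0.00376 with the replicate block. The difference of stress effects was -0.084 with limma-voom and -0.061 with the replicate block for NR3C1, and for FKBP4 -0.045 with limma-voom and -0.046 with the replicate block.

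Without the 3 libraries highest on the first component NR3C1 was 0.13 between regions over both conditions, 0.33 between regions in control ewes, -0.10 for stress in dorsal tissue and -0.40 for the difference of stress effects. FKBP4 was -0.00632 between regions in control ewes and 0.030 for stress in dorsal tissue. FKBP5 was 0.25 and -0.00504 between regions in control and stressed ewes and -0.25 for the difference of stress effects, which for NR3C2 was -0.15. Without the 3 lowest, NR3C1 was 0.10 between regions in stressed ewes and -0.17 for stress in ventral tissue, FKBP4 was 0.14 there and -0.29 for the stress effects' difference, and HSD11B1 was 0.025 between regions in control ewes.

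Leaving out single libraries gave ranges that cross 0. For NR3C1 they were -0.31 to 0.093, -0.48 to 0.33 and -0.41 to 0.20 between regions over both conditions, in control and in stressed ewes, -0.098 to 0.41, -0.22 to 0.64 and -0.026 to 0.41 for stress in dorsal tissue, in ventral tissue and averaged, and -0.47 to 0.39 for the stress effects' difference. For FKBP4 they were -0.018 to 0.61 between regions in control ewes, -0.46 to 0.17 and -0.48 to 0.13 for stress in dorsal and ventral tissue, and -0.28 to 0.35 for the difference. For FKBP5 they were -0.18 to 0.20, -0.51 to 0.26 and -0.064 to 0.34 between regions over both conditions, in control and in stressed ewes, -0.68 to 0.088 for stress in dorsal tissue, and -0.12 to 0.65 for the difference, which for NR3C2 was -0.13 to 0.24.

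The number of genes called between regions over both conditions was 803, and 1558 with DESeq2, 4072 with the choroid plexus covariate, 363 without the 3 libraries highest on the first component and 420 to 1091 without single libraries. In control ewes it was 178, and 728 with DESeq2, 0 with only the groups compared, 1394 with the covariate, 55 and 49 without the 3 lowest and the 3 highest libraries, and 2 to 319 without single libraries. In stressed ewes it was 79, and 580 with DESeq2, 29 with limma-voom, 0 with only the groups compared, 257 with the covariate, 0 without the 3 lowest or the 3 highest, and 1 to 159 without single libraries. For stress, DESeq2 called 1 gene in dorsal tissue, 1 in ventral tissue and 14 averaged, against 0 in edgeR. With the covariate 4 chaperones, 7 coregulators and 4 glucocorticoid-induced genes of the pathway lists were called between regions over both conditions, against 0 without it. In control ewes these were 0, 3 and 3 of the lists, and in stressed ewes 1 glucocorticoid-induced gene, CDKN1A.

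A shared number was not taken as a pairing, because the labels do not say that it marks the same ewes in both regions. Same-numbered dorsal and ventral libraries correlated in their deviations from the group means between -0.233 and 0.761. For number 2 the values were -0.119 in control and -0.233 in stressed ewes. With the replicate block 823 genes were called between regions, and NR3C2 stood at 0.92 (edgeR adjusted p = 0.0188).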
